A study of Mus musculus with 20 samples.

Results

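The nuclear genes of the mitochondrial respiratory chain and ATP synthase were followed across livers of 5 groups of fasted mice. They were taken as the protein-coding genes of the count table whose symbols begin with Nduf, Uqcr, Cox4, Cox5, Cox6, Cox7, Cox8 or Atp5, together with Sdha, Sdhb, Sdhc, Sdhd, Cyc1 and Cycs. This rule, which uses no measured value, gave 99 of 56748 genes. Of these, 46 were assigned to complex I (8 of them the assembly factors named Ndufaf), 4 to complex II, 9 to complex III, 1 to cytochrome c, 21 to complex IV and 18 to ATP synthase. Ndufa4 and its relative Ndufa4l2 were counted with complex IV, where the NDUFA4 protein is now placed.

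Livers were taken after a 24 h fast, and each group held 4 libraries of bulk RNA sequencing. Per the labels, Cpt1DKO livers lacked Cpt1a and Cpt1b, Cpt2KO livers lacked Cpt2, TKO livers lacked all of these, and Cpt2PparaDKO livers lacked Cpt2 together with Ppara, which the genotype label writes as PPAR. Control mice carried floxed Cpt1a, Cpt1b and Cpt2 genes without their loss, and the series text calls the controls littermates without saying of which group. Floxed alleles beyond the deleted ones are not named in the labels of the mutant groups, and no Ppara allele is named for Control. The deletions are described as liver-specific, while the driver of recombination, strain and age were not given in the sources used here. Nothing in the labels ties each library to its own animal. The p-values thus reflect only how far the libraries of a group scatter, and part of that scatter may be technical. A difference of line or background between any pair of groups, mutant groups included, cannot be told apart from the genotype.

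Total counts ran from 14129595 to 36452673, the largest in Cpt2PparaDKO replicate 1. Cpt2KO replicate 3 and Cpt2PparaDKO replicate 4 carried the transcript Xist at 981 and 1266 CPM (counts per library size after TMM scaling), a female pattern that none of the other libraries showed. Cpt1a averaged 155 ± 12.2 CPM in Cpt1DKO and 137 ± 12.7 CPM in TKO, against 1038 ± 76.6 CPM in Control (SD, n = 4 each). Cpt2 averaged 131 ± 23.6 CPM in Cpt2KO, 103 ± 11.7 CPM in TKO and 33.9 ± 4.86 CPM in Cpt2PparaDKO, against 249 ± 26.2 CPM in Control, and Ppara averaged 73.2 ± 13.0 CPM in Cpt2PparaDKO, against 233 ± 46.1 CPM in Control. Cpt1b stayed at or under 3.91 CPM on average in every group and did not check the labels. Counts covered whole genes, and floxed exons are only part of a gene.

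Oxidative phosphorylation passes electrons from NADH through complex I, and from succinate through complex II, to coenzyme Q, then through complex III and the soluble carrier cytochrome c to complex IV, where oxygen is reduced. Complexes I, III and IV pump protons, and ATP synthase uses the proton gradient to make ATP. Most subunits are nuclear-encoded, while a core set is made from mitochondrial DNA. In fasting liver the chain receives the reducing power of fatty acid oxidation, which depends on the carnitine palmitoyltransferases CPT1 and CPT2, and on PPARalpha, the product of Ppara, a lipid-sensing nuclear receptor that switches on fatty acid oxidation and ketone genes during fasting.

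Levels of different genes were set side by side as the authors' FPKM, which divides a count by gene length and library size. In Control livers the subunits of F1, the catalytic head of ATP synthase, and the broadly expressed complex IV subunits stood highest, with Cox6a1 at 492 ± 6.78, Atp5b at 347 ± 17.2 and Cox4i1 at 276 ± 13.9 FPKM (SD, n = 4). Cycs, the single somatic cytochrome c gene, stood at 36.9 ± 3.43 FPKM in Control, and Sdha, the flavoprotein of complex II, at 136 ± 9.93 FPKM. Assembly factors were low, as for Ndufaf6 at 8.63 ± 1.11 FPKM. The complex IV isoforms known from heart, muscle, lung or testis were nearly silent, with Cox7a1 at 1.61 ± 0.271, Cox6a2 at 0.0675 ± 0.0828 and Cox4i2 at 0.137 ± 0.124 FPKM in Control. Cox6b2, known as the testis isoform of subunit 6b, reached 1.82 ± 1.02 FPKM in Control, against 227 ± 7.37 FPKM for its broad counterpart Cox6b1.

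**Figure D1:**
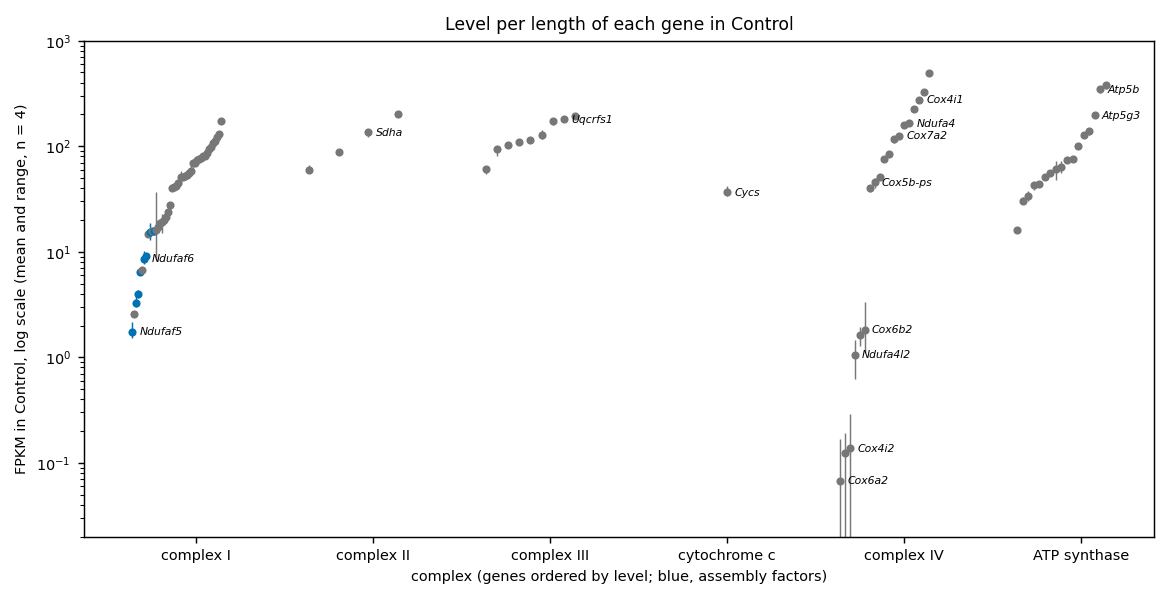
Level per length of each gene in Control liver, as FPKM on a log axis; points are means and bars the lowest to the highest of 4 libraries, and a bar that reaches the axis includes a library at or below it. Blue marks complex I assembly factors. The tissue-restricted isoforms of complex IV lie below 2 FPKM, while Cox4i1 lies at 276 and Atp5b at 347 FPKM.

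For the tests between groups, 92 of the 99 genes passed the filter on low counts, as did 15669 genes in all. The other 7 were Cox4i2, Cox6a2, Cox7b2, Cox8b, Cox8c, Ndufb11b and a further row named Atp5o, and 3 of them had 0 counts in every library. Of the tested genes, 14 overlap another gene with over 10% of their level (Ndufs1 and Ndufb11 among them), and 18 rows of other biotypes carry names that begin like the members'. The strand setting of the count and its treatment of reads shared with such rows were not given in the sources used here, so values of these genes are less certain.

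The chain as a whole was lowest in Cpt2PparaDKO livers. Summed over all members, it took 9224.9, 9638.2, 10626 and 8291.1 CPM in the 4 Cpt2PparaDKO libraries and 13464.3, 14188.8, 14147.7 and 13856.3 CPM in the 4 Control libraries. The sum lay between 11816.8 and 14339.2 CPM in Cpt1DKO, between 12635.1 and 17355.6 CPM in Cpt2KO and between 11704 and 13122.8 CPM in TKO. Cpt2PparaDKO libraries therefore all lay below the lowest library of every other group, Cpt2KO spread most widely, with replicate 2 highest and replicate 1 lowest, and the 4 Control libraries lay close together.

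Against Control, 0 members were higher and 76 of 92 were lower in Cpt2PparaDKO by edgeR's quasi-likelihood test at an adjusted p under 0.05, where 32.5% of all tested genes were called, 14.9% higher and 17.6% lower. Without the female-pattern libraries 70 were lower. In Cpt2KO 7 members were higher and 5 lower than in Control, where 33.4% of all genes were called (16.2% higher and 17.2% lower), so that the members' share lay below that of the genome. In TKO 0 were higher and 17 lower than in Control, where 27.4% of all genes were called and 14.4% were called lower. In Cpt1DKO 0 were called against Control, where 5.55% of all genes were called. At an unadjusted p under 0.05, 7 members were lower and 0 higher in Cpt1DKO, where 21.3% of all genes passed, and DESeq2 called 1, with 8.72% of all genes. The median log2 fold change of the 92 members was -0.11 in Cpt1DKO and 0.04 in Cpt2KO. It was -0.22 in TKO and -0.55 in Cpt2PparaDKO, each against the same Control libraries, while the median over all tested genes lay between -0.01 and 0.00. Abundant genes were called lower more often than genes in general: 75 of the 92 tested members stood among the 3917 genes with the highest mean CPM, and of those genes 33.5% were called lower in Cpt2PparaDKO, 22.2% in TKO and 23.8% in Cpt2KO than in Control. The 17 of 92 members called lower in TKO thus lay near the share of abundant genes in general.

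These falls are relative to the typical gene of a library. TMM factors, used here, bring the median of all genes near 0. Scaling by total count alone raised the median over all genes to 0.48 in Cpt2PparaDKO, 0.24 in TKO, 0.20 in Cpt2KO and 0.10 in Cpt1DKO against Control, and raised the share of called genes that were higher in Cpt2PparaDKO than in Control to 88.0%, from 45.7% under TMM. With it, 5 members were higher and 9 lower in Cpt2PparaDKO than in Control, the member median was -0.08, and 9 of the 76 genes called lower under TMM had a log2 fold change above 0, none of them called there. These were Atp5pb, Cox5b, Ndufa2, Ndufa6, Ndufa8, Ndufb6, Ndufs7, Uqcr10 and Uqcrc1. Under TMM, under the median-of-ratios factors of DESeq2 and under total counts alike, the member median lay below the median of all genes in Cpt2PparaDKO, by 0.55, 0.55 and 0.56 on the log2 scale. As a plain share of a library's counts, the members took 1.14 ± 0.09% in Cpt2PparaDKO, 1.203 ± 0.03% in Control and 1.46 ± 0.17% in Cpt2KO.

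**Figure D2:**
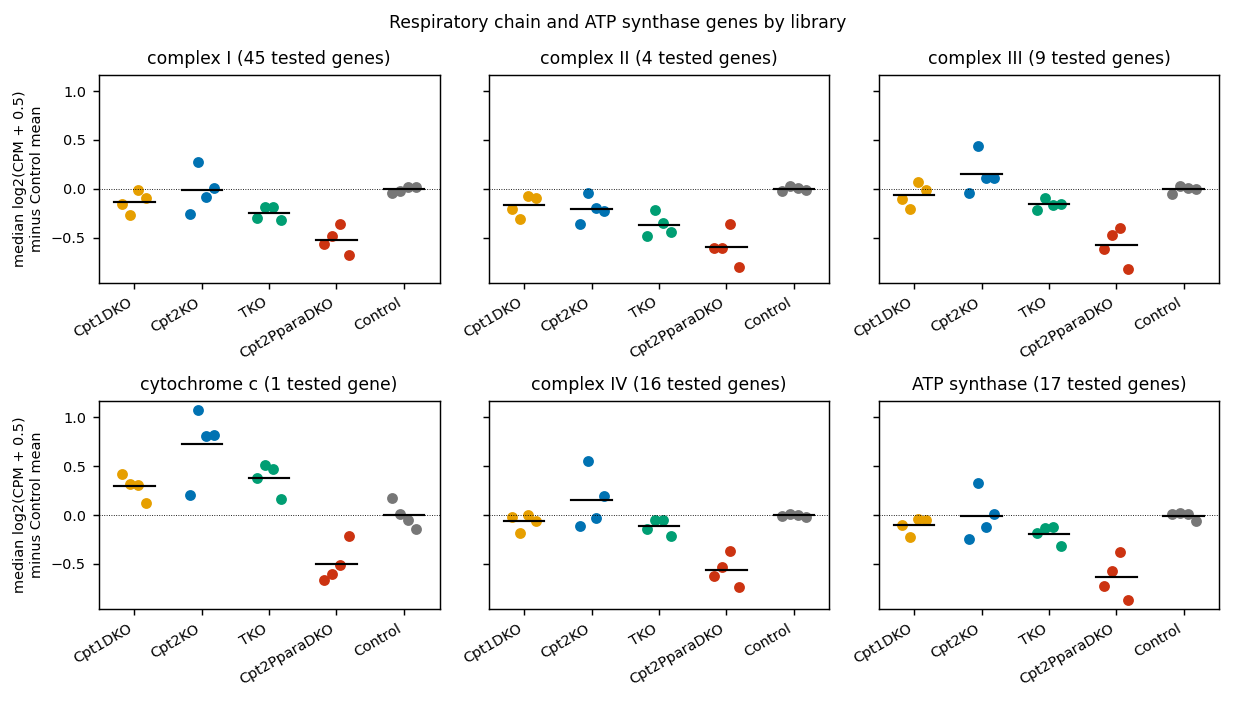
Median over the tested genes of each complex of log2(CPM + 0.5) minus the Control mean of the same gene, for each library; points are libraries and lines group means of 4. The 4 Cpt2PparaDKO libraries lie at or below -0.36 for complexes I to IV and ATP synthase, a fall relative to the typical gene that shrinks to a median of -0.08 over all 92 genes when libraries are scaled by total count.

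The fall in Cpt2PparaDKO against Cpt2KO, which by label differ in the loss of Ppara, held 75 of 92 members, with 0 higher, where 24.4% of all genes were called and 12.2% were called lower. Cpt2 itself also differed between these groups, at 33.9 ± 4.86 CPM in Cpt2PparaDKO and 131 ± 23.6 CPM in Cpt2KO, and its part in the result was not tested. Without the female-pattern libraries 73 were lower. The median of the members was -0.58, and 62 of the 92 had all 4 Cpt2PparaDKO libraries below all 4 Cpt2KO libraries, where 11.2% of all genes did. Under total-count scaling 47 were lower and 1 higher, while the median of all genes moved to 0.29. Both comparisons use the Cpt2PparaDKO libraries, so their counts are not independent. All 9 members of complex III and the cytochrome c gene were lower in Cpt2PparaDKO than in Control and than in Cpt2KO, although against Control Uqcr10 and Uqcrc1 lay above 0 under total-count scaling. All 17 tested members of ATP synthase were lower in Cpt2PparaDKO than in Cpt2KO, and 16 were lower than in Control, of which Atp5pb lay above 0 under total-count scaling.

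**Figure D3:**
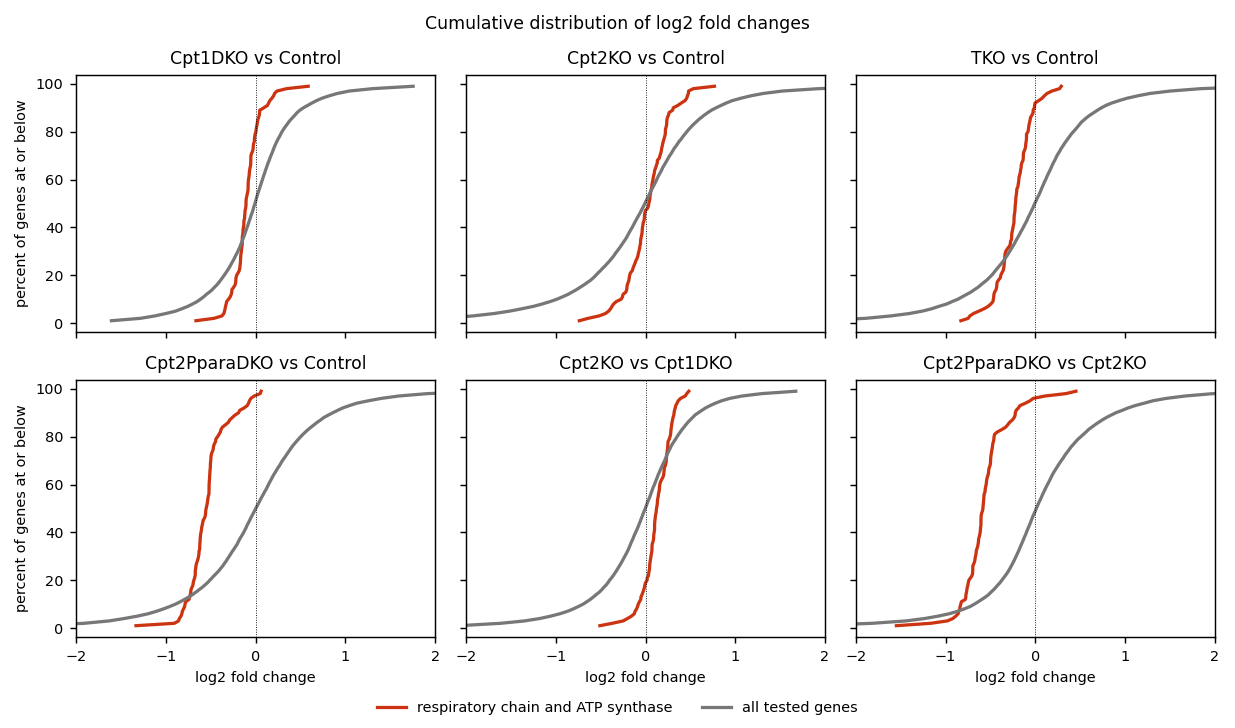
Cumulative distribution of log2 fold changes in 6 comparisons; the x axis is the log2 fold change and the y axis the percent of genes at or below it, for the 92 tested members (red) and all 15669 tested genes (grey). In both Cpt2PparaDKO panels the red curve lies left of the grey one over most of its height, with medians of -0.55 and -0.58, relative to the typical gene.

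Complex I, the NADH dehydrogenase, showed a contrast between its subunits and its assembly factors. All 7 tested core subunits and 26 of 30 tested accessory subunits were lower in Cpt2PparaDKO than in Control, against 2 of 8 assembly factors, with median log2 fold changes of -0.60, -0.61 and -0.15; under total-count scaling Ndufs7, Ndufa2, Ndufa6, Ndufa8 and Ndufb6 lay above 0. Ndufa1, a small membrane-arm subunit encoded on the X chromosome, had 41.6, 41.8, 48.1 and 32.5 CPM in Cpt2PparaDKO and 74.0, 72.6, 79.3 and 72.04 CPM in Control. The groups did not overlap, and the log2 fold change was -0.86 (SE 0.12, adjusted p = 2.6e-05). Ndufb3, another membrane-arm subunit, had 25.4, 25.2, 25.2 and 24.9 CPM in Cpt2PparaDKO and 51.6, 42.0, 42.5 and 46.5 CPM in Control (log2 fold change -0.86, SE 0.12, adjusted p = 2.2e-05). Its Cpt2PparaDKO libraries were nearly equal, and all lay below Control. Of the core subunits, Ndufs1, which carries iron-sulfur clusters and overlaps Eef1b2, averaged 93.7 ± 5.22 CPM in Cpt2PparaDKO and 142 ± 11.0 CPM in Control, and Ndufv1, the flavoprotein that binds NADH, averaged 138 ± 6.80 CPM in Cpt2PparaDKO and 198 ± 10.7 CPM in Control.

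Among the assembly factors, only Ndufaf1 and Ndufaf6 were called in Cpt2PparaDKO against Control, both lower, and Ndufaf6 had another pattern over the groups. Ndufaf6 (ENSMUSG00000050323, chromosome 4, 11051045 to 11076205, minus strand, GRCm39) had 5.94, 6.87, 4.62 and 4.96 CPM in Cpt2KO and 5.76, 6.47, 6.76 and 5.49 CPM in TKO, against 10.9, 9.65, 12.8 and 10.1 CPM in Control. Both mutant groups lay below Control without overlap (log2 fold changes -0.95, SE 0.17, adjusted p = 2.1e-04, and -0.83, SE 0.17, adjusted p = 0.0011). Cpt2PparaDKO lay between, at 6.78, 8.02, 8.32 and 7.49 CPM, and was also below Control (-0.51, SE 0.17, adjusted p = 0.025), a call lost without Cpt2PparaDKO replicate 1, 2 or 4 or Control replicate 3. Ndufaf6 was also lower in Cpt2KO than in Cpt1DKO, where 3 of 4 libraries had between 7.04 and 7.74 CPM and replicate 1 had 11.5 CPM (-0.60, SE 0.17, adjusted p = 0.025), a call lost without Cpt1DKO replicate 1 or Cpt2KO replicate 3 or 4.

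Ndufv3, an accessory subunit beside the NADH-binding site, was lower than in Control in all groups that lacked Cpt2. It had 36.4, 48.3, 37.8 and 47.5 CPM in Cpt2KO, 38.7, 45.5, 41.7 and 39.0 CPM in TKO and 33.5, 36.7, 46.9 and 28.7 CPM in Cpt2PparaDKO, against 65.8, 62.6, 67.3 and 66.1 CPM in Control. No library of these groups reached the lowest Control library, and the log2 fold changes were -0.62, -0.67 and -0.85 (SE 0.13 each, adjusted p = 0.0011, 8.1e-04 and 7.7e-05). In Cpt1DKO it had 45.9, 41.8, 54.4 and 52.4 CPM, also below every Control library, but was not called (-0.43, SE 0.13, adjusted p = 0.062). Ndufs8, an iron-sulfur core subunit, was lower in TKO (-0.54, SE 0.13, adjusted p = 0.0035) and in Cpt2PparaDKO (-0.60, SE 0.13, adjusted p = 0.0013). Its call in Cpt2KO (-0.34, SE 0.13, adjusted p = 0.048) was kept in 1 of 8 fits that left out a library.

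In TKO, 14.4% of all tested genes and 22.2% of the 3917 genes with the highest mean CPM were called lower than in Control. Of the 17 members below Control, 12 belonged to complex I, which held 45 of the 92 tested members. The 12 of 45 lay near the share of abundant genes, and no test compared the complexes. These members are therefore given as single genes and not as a complex that changed. Beside those above, Ndufa13, which is needed for assembly of the membrane arm, had 62.8, 63.8, 55.2 and 51.9 CPM in TKO and 81.4, 96.6, 90.3 and 85.6 CPM in Control (log2 fold change -0.60, SE 0.16, adjusted p = 0.0088). The groups did not overlap, and the call was kept without each library in turn, as were those of Ndufaf6, Ndufv3, Ndufs8, Ndufa1, Ndufb11 and Sdha. The other 10 calls in TKO were lost without at least 1 library. The number of calls fell to 8 without Control replicate 2, 9 without TKO replicate 4, and 11 without Control replicate 3 or without Control replicate 4. Under total-count scaling 2 members were lower and 5 higher in TKO than in Control.

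Ndufab1, the mitochondrial acyl carrier protein that is also a complex I subunit, was 1 of 2 complex I members called higher in Cpt2KO than in Control, where 4 of the 45 tested were called lower and their median log2 fold change was -0.02. It had 58.6, 77.9, 68.0 and 59.3 CPM in Cpt2KO and 47.3, 45.4, 47.8 and 48.4 CPM in Control, and all Cpt2KO libraries were above Control (log2 fold change 0.48, SE 0.11, adjusted p = 0.0014). In Cpt2PparaDKO it had 41.5, 43.7, 44.4 and 37.5 CPM, below every Cpt2KO library (-0.66, SE 0.11, adjusted p = 1.1e-04). It was the only member called in the interaction, the effect of Cpt2 loss without Cpt1a and Cpt1b minus that with them (-0.56, SE 0.15, adjusted p = 0.049), where 2.7% of all genes were called and 1.28% were called lower. DESeq2 called 5 members there, and 6.52% of all genes. TKO had 46.8, 47.0, 58.5 and 48.4 CPM and Cpt1DKO 51.5, 48.2, 58.6 and 53.5 CPM. This call was kept in 3 of 16 fits that left out a library. Ndufs7, an iron-sulfur core subunit next to the quinone site, was also higher in Cpt2KO than in Control (0.37, SE 0.13, adjusted p = 0.035), a call lost without Cpt2KO replicate 2, Control replicate 1 or Control replicate 3.

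**Figure D4:**
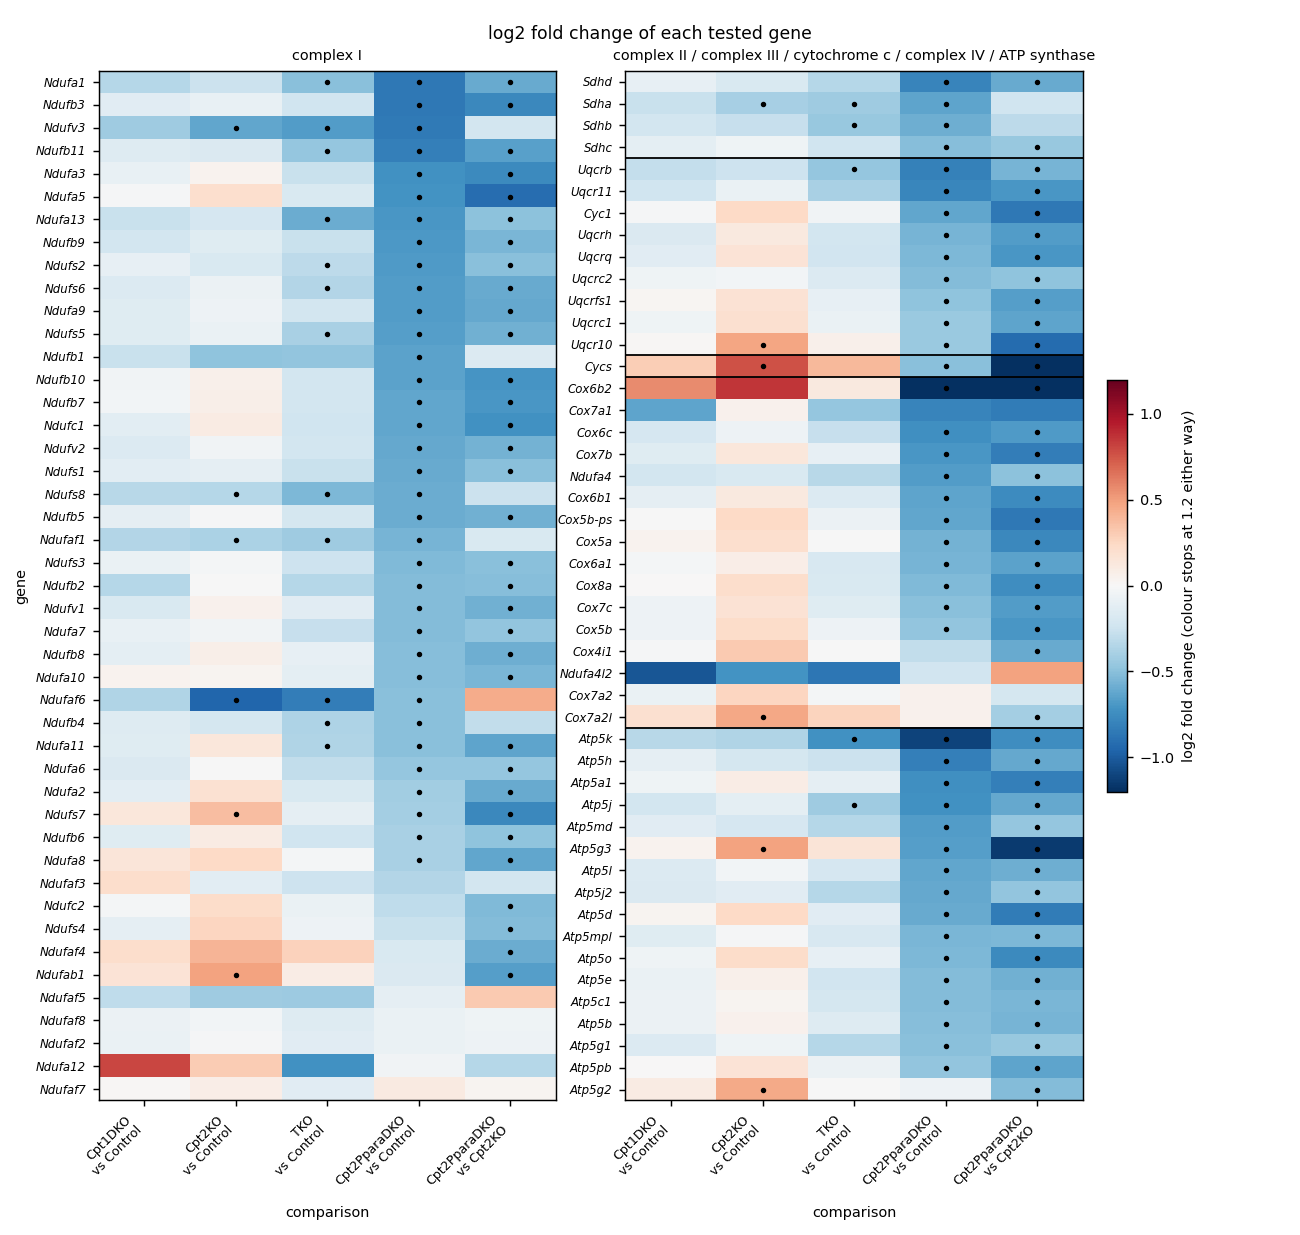
log2 fold change of each of the 92 tested genes in 5 comparisons; rows are genes within a complex, ordered by Cpt2PparaDKO against Control, red is higher and blue lower in the first-named group, and dots mark an adjusted p under 0.05. Most rows are blue in both Cpt2PparaDKO columns, relative to the typical gene. Of the 76 dotted genes of Cpt2PparaDKO against Control, 9 lie above 0 under total-count scaling. In that comparison 6 of the 8 Ndufaf rows carry no dot. Most Ndufaf genes are less abundant than most subunits, and less abundant genes were called lower less often.

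Complex II, succinate dehydrogenase, is the only complex made wholly from nuclear genes, and all 4 members were lower in Cpt2PparaDKO than in Control. Sdha (ENSMUSG00000021577, chromosome 13, 74470373 to 74498399, minus strand, GRCm39) had 403, 366, 351 and 359 CPM in Cpt2PparaDKO, 426, 399, 473 and 443 CPM in Cpt2KO and 416, 470, 387 and 430 CPM in TKO, against 512, 594, 588 and 600 CPM in Control. All of these lay below the lowest Control library, with log2 fold changes of -0.63, -0.40 and -0.43 (SE 0.12 each, adjusted p = 3.6e-04, 0.012 and 0.0091). Under total-count scaling they were -0.15, -0.18 and -0.19, none of them called. In Cpt1DKO, Sdha had 486, 387, 536 and 491 CPM, with 3 of 4 libraries below the lowest Control library, and was not called (-0.27, SE 0.12, adjusted p = 0.18). Sdhb, the iron-sulfur subunit, was lower in TKO (-0.45, SE 0.13, adjusted p = 0.012) and in Cpt2PparaDKO (-0.59, SE 0.13, adjusted p = 0.0016) than in Control, and its TKO call was lost without TKO replicate 4. For these catalytic subunits the difference between Cpt2PparaDKO and Cpt2KO was not called. The membrane anchors differed there: Sdhd had 130, 149, 190 and 112 CPM in Cpt2PparaDKO and 204, 234, 231 and 214 CPM in Cpt2KO (-0.60, SE 0.14, adjusted p = 0.0027), and Sdhc was lower as well (-0.46, SE 0.11, adjusted p = 0.0039).

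Cytochrome c and complex III carried some of the largest changes between Cpt2PparaDKO and Cpt2KO. Cycs (ENSMUSG00000063694, chromosome 6, 50539543 to 50543518, minus strand, GRCm39) had 80.4, 83.5, 89.0 and 110 CPM in Cpt2PparaDKO, 147, 269, 225 and 226 CPM in Cpt2KO, and 144, 129, 123 and 116 CPM in Control. The 3 groups did not overlap. Cycs was 1.69-fold as high in Cpt2KO as in Control (log2 fold change 0.76, SE 0.15, adjusted p = 5.2e-04) and 0.418-fold as high in Cpt2PparaDKO as in Cpt2KO (-1.26, SE 0.15, adjusted p = 2.7e-06). Its fall in Cpt2PparaDKO against Control (-0.50, SE 0.15, adjusted p = 0.014) was lost without Cpt2PparaDKO replicate 1 or 2 and came to -0.01 under total-count scaling. Cpt1DKO had 171, 159, 159 and 139 CPM and TKO 166, 183, 177 and 143 CPM, above most Control libraries but not called (0.30, adjusted p = 0.26, and 0.39, adjusted p = 0.060).

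Within complex III, Uqcr10, a small subunit, had 66.7, 74.2, 90.0 and 70.3 CPM in Cpt2PparaDKO, 118, 183, 130 and 139 CPM in Cpt2KO, and 102, 111, 102 and 94.3 CPM in Control. It was higher in Cpt2KO than in Control (0.48, SE 0.13, adjusted p = 0.0070) and lower in Cpt2PparaDKO than in Cpt2KO (-0.92, SE 0.13, adjusted p = 2.2e-05), again without overlap. Against Control it was lower in Cpt2PparaDKO under TMM (-0.44, SE 0.13, adjusted p = 0.012) and at 0.04, not called, under total-count scaling. Cyc1, the cytochrome c1 subunit that hands electrons to cytochrome c, had 154, 165, 174 and 136 CPM in Cpt2PparaDKO and 259, 347, 275 and 261 CPM in Cpt2KO (-0.86, SE 0.12, adjusted p = 2.8e-05), against 224, 260, 243 and 242 CPM in Control. Uqcrfs1, the Rieske iron-sulfur protein, averaged 178 ± 18.3 CPM in Cpt2PparaDKO, 282 ± 33.6 CPM in Cpt2KO and 249 ± 5.68 CPM in Control.

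In complex IV, cytochrome c oxidase, the broadly expressed subunits and their tissue-restricted isoforms could be compared. Cox6b2 (ENSMUSG00000051811, chromosome 7, 4754791 to 4756093, minus strand, GRCm39) showed the largest fold of all members. It had 2, 3, 9 and 3 counts in Cpt2PparaDKO, 46, 92, 78 and 47 counts in Cpt2KO, and 29, 24, 18 and 64 counts in Control. Cpt2PparaDKO lay below both other groups without overlap (log2 fold change -4.48, SE 0.50, adjusted p = 1.0e-06 against Cpt2KO, and -3.63, SE 0.51, adjusted p = 2.3e-05 against Control). From the summed counts, 17 in Cpt2PparaDKO, 263 in Cpt2KO and 135 in Control, the ratio to Cpt2KO was 0.0400 (95% exact interval 0.0229 to 0.0652) and the ratio to Control 0.0723 (0.0409 to 0.120), which cover counting error only. Even in Cpt2KO it reached 3.35 ± 0.912 FPKM, against 250 ± 56.0 FPKM for Cox6b1 in the same livers. Cox6b1 had 98.98, 111, 121 and 92.2 CPM in Cpt2PparaDKO and 171, 165, 163 and 157 CPM in Control, without overlap (-0.63, SE 0.13, adjusted p = 8.4e-04).

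Of the other broad isoforms, Cox6a1 (-0.56, SE 0.12, adjusted p = 0.0011) and Cox8a (-0.53, SE 0.13, adjusted p = 0.0035) were lower in Cpt2PparaDKO than in Control. Cox4i1 was not called there, with 333, 346, 436 and 305 CPM in Cpt2PparaDKO and 409, 444, 459 and 431 CPM in Control, which overlapped (-0.29, SE 0.14, adjusted p = 0.10). Cox7a2 had 130, 136, 155 and 80.9 CPM in Cpt2PparaDKO and 122, 122, 123 and 118 CPM in Control, so that 3 libraries were above and the female-pattern library below every Control library, and it was not called (0.05, SE 0.17, adjusted p = 0.86). Cox7a2l, whose protein links complexes III and IV into supercomplexes, had 116, 196, 141 and 177 CPM in Cpt2KO and 116, 115, 116 and 112 CPM in Control (0.46, SE 0.13, adjusted p = 0.0099). Its Cpt2KO libraries ranged from within the Control range to well above it. Under total-count scaling Cox7a2 and Cox7a2l were called higher in Cpt2PparaDKO than in Control, at 0.52 and 0.54.

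The restricted isoforms other than Cox6b2 stayed near the floor. Cox6a2, the heart and muscle isoform, had 10, 3, 10 and 34 counts in Cpt2PparaDKO and between 0 and 4 counts in every other library. These were too few for the filter, so it was not tested in the main fit. Fits with no filter and with DESeq2 took in 96 members. Each called 1 member, not identified here, higher in Cpt2PparaDKO than in Control and than in Cpt2KO, against 0 in the main fit. Markers of skeletal and heart muscle summed to between 0.737 and 1.45 CPM in Cpt2PparaDKO and between 0.8293 and 1.76 CPM in Control over 8 genes, 2 of which were at 0 in each of these groups. Cox7a1 was between 0.265 and 1.81 CPM in every library, and Ndufa4l2, known as a gene induced by low oxygen, between 0.196 and 2.15 CPM. Neither was called in any comparison with Control. Ndufa4l2 overlaps Shmt2, so its few reads are of uncertain origin.

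In ATP synthase, called falls in Cpt2PparaDKO against Control took in all 5 members of the F1 head (median log2 fold change -0.52), all 4 of the peripheral stalk (-0.63), 2 of 3 of the c ring and all 5 other membrane members (-0.62); no test compared these parts. Atp5a1 and Atp5b, the alpha and beta subunits of the catalytic head, had 736, 734, 780 and 659 CPM and 1102, 1069, 1070 and 965 CPM in Cpt2PparaDKO, against 1107, 1268, 1218 and 1248 CPM and 1396, 1567, 1532 and 1492 CPM in Control. Neither pair overlapped (log2 fold changes -0.74, SE 0.12, adjusted p = 1.3e-04, and -0.51, SE 0.12, adjusted p = 0.0019). Atp5k, subunit e of the membrane part, had 13.0, 13.6, 26.2 and 17.9 CPM in Cpt2PparaDKO and 22.4, 22.8, 27.3 and 18.9 CPM in TKO, against 45.3, 43.4, 30.2 and 32.9 CPM in Control. Both were lower than Control (-1.11, SE 0.22, adjusted p = 5.8e-04, and -0.73, SE 0.21, adjusted p = 0.014), and the TKO call was lost without TKO replicate 4, Control replicate 1 or Control replicate 2. Atp5h, the d subunit of the peripheral stalk, had 80.2, 85.9, 97.9 and 75.4 CPM in Cpt2PparaDKO and 150, 150, 149 and 151 CPM in Control (-0.82, SE 0.14, adjusted p = 1.1e-04).

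The 3 genes for the same mature subunit c, which forms the rotor ring, did not move alike. Atp5g3 (ENSMUSG00000018770, chromosome 2, 73738791 to 73741670, minus strand, GRCm39) had 260, 283, 302 and 257 CPM in Cpt2PparaDKO, 491, 719, 594 and 633 CPM in Cpt2KO, and 439, 445, 441 and 424 CPM in Control. The groups were separate, with Cpt2KO above Control (0.48, SE 0.12, adjusted p = 0.0039) and Cpt2PparaDKO below Control (-0.67, SE 0.12, adjusted p = 2.9e-04) and below Cpt2KO (-1.14, SE 0.12, adjusted p = 5.2e-07). Atp5g2 was likewise higher in Cpt2KO (0.46, SE 0.11, adjusted p = 0.0035), but in Cpt2PparaDKO had 84.0, 88.4, 97.8 and 93.7 CPM, within the range of 90.1 to 99.9 CPM in Control apart from 2 lower libraries (-0.06, SE 0.11, adjusted p = 0.71). Atp5g1 was lower in Cpt2PparaDKO than in Control (-0.50, SE 0.14, adjusted p = 0.0071) and had 117, 192, 135 and 144 CPM in Cpt2KO, across the Control range of 144 to 165 CPM (-0.05, SE 0.14, adjusted p = 0.81). In Control, Atp5g3 stood at 197 ± 3.76 FPKM, Atp5g2 at 55.7 ± 3.27 FPKM and Atp5g1 at 30.5 ± 1.74 FPKM. Atpif1, the inhibitor protein of ATP synthase, lies outside the rule and averaged 6.44 ± 1.51 CPM in Cpt2PparaDKO and 5.398 ± 0.564 CPM in Control.

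**Figure D5:**
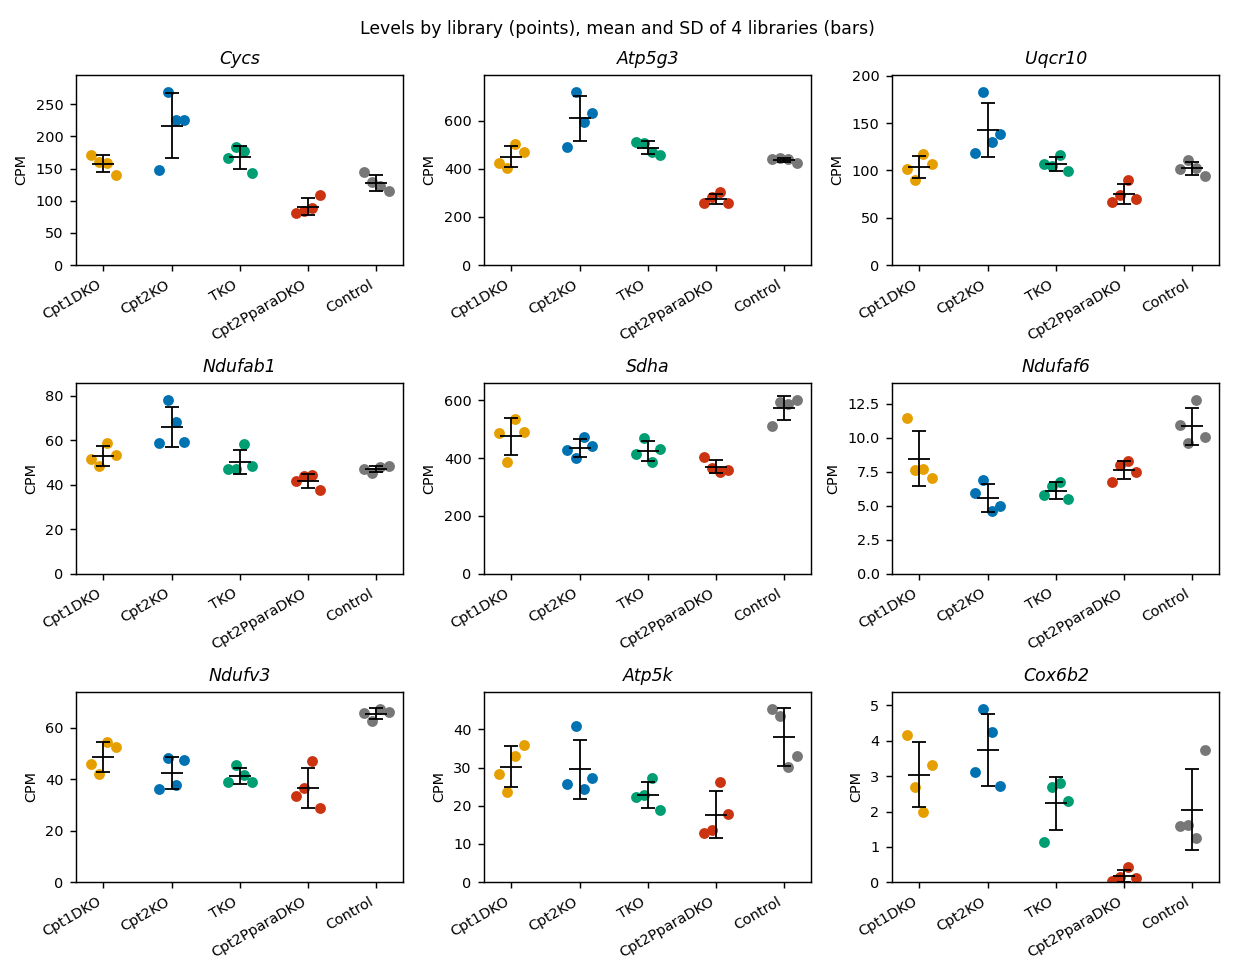
Level in CPM (scaled with TMM factors) of 9 members in every library; points are libraries, bars mean and SD of 4, and each axis starts at 0. Cycs, Atp5g3, Uqcr10 and Ndufab1 lie above Control in Cpt2KO and at or below Control in Cpt2PparaDKO (Uqcr10 comes to 0.04 against Control under total-count scaling, Ndufab1 to 0.30), while Sdha, Ndufaf6 and Ndufv3 lie below every Control library in Cpt2KO, TKO and Cpt2PparaDKO, and most Cpt1DKO libraries also lie below Control.

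The members higher in Cpt2KO than in Control were Cycs, Ndufab1, Atp5g3, Uqcr10, Cox7a2l, Atp5g2 and Ndufs7, and except for Ndufs7 each call was kept without every one of the 8 libraries in turn. Under total-count scaling 34 members were higher in Cpt2KO and 2, Ndufaf6 and Ndufv3, were lower. Cpt2KO against Cpt1DKO, which sets loss of the inner-membrane enzyme against loss of the outer-membrane one, had 5 members higher (Cycs, Uqcr10, Atp5g3, Atp5g2 and Ndufab1) and Ndufaf6 lower, where 14.1% of all genes were called (7.41% higher and 6.71% lower). These calls rested on single libraries: there were 0 without Cpt1DKO replicate 1, 1 without Cpt1DKO replicate 2, 2 without Cpt2KO replicate 2 and 3 without Cpt1DKO replicate 4. TKO against Cpt2KO had 0 members called, where 0.0511% of all genes were called; at an unadjusted p under 0.05, 35 members were lower and 0 higher in TKO, where 10.8% of all genes passed, and DESeq2 called 2, with 0.435% of all genes. TKO against Cpt1DKO also had 0 members called, where 4.65% of all genes were called; at an unadjusted p under 0.05, 4 were lower, where 20% of all genes passed, and DESeq2 called 1, with 7.65% of all genes.

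Markers of liver cell types differed between the same groups. Under total-count scaling 8454 of the 15669 tested genes were called in Cpt2PparaDKO against Control, 88.0% of them higher. The 8 hepatocyte markers summed to between 40253 and 45103 CPM in Cpt2PparaDKO, 49242 and 79280 CPM in Cpt2KO, and 86702 and 108219 CPM in Control. None of them was at 0. Of the 8, 6 were lower in Cpt2PparaDKO than in Control (3 under total-count scaling), beside 17.6% of all genes under TMM. The 12 macrophage markers summed to between 531 and 618 CPM in Cpt2PparaDKO and 263 and 524 CPM in Control. Of the 12, 3 were higher (9 under total-count scaling), beside 14.9% of all genes under TMM. Their sum was 271 to 356 CPM in Cpt1DKO, 270 to 621 CPM in Cpt2KO and 212 to 378 CPM in TKO. The 10 stellate and matrix markers summed to between 321 and 340 CPM in Cpt2PparaDKO and 218 and 250 CPM in Control. Of the 10, 5 were higher (9 under total-count scaling), beside 14.9% of all genes under TMM. Their sum was 283 to 337 CPM in Cpt1DKO, 286 to 384 CPM in Cpt2KO and 250 to 292 CPM in TKO. The 9 endothelial markers summed to between 407 and 453 CPM in Cpt2PparaDKO and 259 and 563 CPM in Control, with 0 called (6 higher under total-count scaling). Of 4 neutrophil markers 2 were tested, and 0 were called (2 higher under total-count scaling). In TKO, where 3 of 8 hepatocyte markers were lower than in Control, the hepatocyte sum was between 41464 and 75148 CPM. In Cpt2KO 4 of the 8 were lower than in Control, beside 17.2% of all genes under TMM. Under total-count scaling 3 were lower and 1 higher there. Between Cpt2PparaDKO and Cpt2KO, 3 were lower and 1 higher in Cpt2PparaDKO, where 12.2% of all genes were called lower. Under total-count scaling 1 was lower and 1 higher. The part of cell composition in the changes of the chain was not tested, and in bulk tissue fewer cells of a type and less RNA per cell cannot be told apart.

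Other genes of the pathway were read from lists chosen with earlier results of these data known. In Cpt2PparaDKO against Control, 17.6% of all genes were called lower and 14.9% higher. Of the 3917 genes with the highest mean CPM, 33.5% were called lower. Under total-count scaling 8454 of 15669 genes were called there, 88.0% of them higher. Of 13 mRNAs made from mitochondrial DNA, 4 were lower and 0 higher in Cpt2PparaDKO than in Control (mt-Nd1, mt-Nd2, mt-Nd3 and mt-Nd4, all complex I subunits, with mt-Nd3 at -1.03, SE 0.28, adjusted p = 0.0087). The median over the 13 was -0.38, against -0.55 over the 92 nuclear members, and came to 0.10 under total-count scaling, where 1 was higher and 0 lower. Of 42 tested assembly factors outside the rule, 14 were lower and 0 higher in Cpt2PparaDKO than in Control, beside 17.6% and 14.9% of all genes. Among the lower ones was Coa6, needed for copper delivery to complex IV (-1.02, SE 0.13, adjusted p = 1.0e-05). The median over the 42 was -0.16 and became 0.32 under total-count scaling, where 15 were higher and 1 lower. The fall was not particular to Cpt2PparaDKO. Against Control, 10 of the 42 were lower and 2 higher in TKO (median -0.20), beside 14.4% of all genes called lower. In Cpt2KO 8 were lower and 3 higher (median -0.10), beside 17.2% and 16.2% of all genes. Under total-count scaling 6 were higher and 2 lower in each of these groups.

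For coenzyme Q synthesis and other dehydrogenases that feed coenzyme Q, 19 genes were listed. Of these, 11 were lower and 1 higher in Cpt2PparaDKO than in Control, beside 17.6% and 14.9% of all genes. Under total-count scaling 6 were lower and 4 higher, where 8454 of 15669 genes were called, 88.0% of them higher. Etfdh, which passes electrons from fatty acid oxidation to coenzyme Q, averaged 132 ± 20.2 CPM in Cpt2PparaDKO, 658 ± 72.4 CPM in Cpt2KO and 493 ± 33.0 CPM in Control (log2 fold change -1.90, SE 0.14, adjusted p = 6.1e-09 against Control, and -2.32, SE 0.14, adjusted p = 1.1e-10 against Cpt2KO). Coq8a, a regulator of coenzyme Q synthesis, averaged 47.3 ± 23.0 CPM in Cpt2PparaDKO and 223 ± 48.7 CPM in Control (-2.23, SE 0.35, adjusted p = 1.3e-04). These exceed the change of any tested member of the chain other than Cox6b2. Of 18 other mitochondrial housekeeping genes, such as import channels and chaperones, 3 were higher and 5 lower in Cpt2PparaDKO than in Control, with a median of -0.04. Among all genes 14.9% were called higher and 17.6% lower there. Under total-count scaling 13 of the 18 were higher and 1 lower. In Cpt2KO 11 of these 18 were higher and 1 lower than in Control, beside 16.2% and 17.2% of all genes, with a median of 0.43. Under total-count scaling 17 were higher and 0 lower, where 5810 of 15669 genes were called, 70.1% of them higher.

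Under total-count scaling, 10 of 16 tested regulators of mitochondrial gene expression were higher and 1 lower in Cpt2PparaDKO than in Control. There 8454 of 15669 genes were called, 88.0% of them higher. Under TMM, 1 of the 16 was higher and 4 lower. The count of 4 lay near the 17.6% of all genes called lower, so these regulators are given as single genes and not as a group that changed. Esrrg, an orphan nuclear receptor that acts on oxidative genes, averaged 0.197 ± 0.111 CPM in Cpt2PparaDKO, 2.56 ± 2.77 CPM in Cpt2KO and 6.78 ± 3.94 CPM in Control (-5.14, SE 0.73, adjusted p = 4.3e-05 against Control). Tfam, which packages and transcribes mitochondrial DNA, averaged 38.8 ± 2.76 CPM in Cpt2PparaDKO and 55.5 ± 2.77 CPM in Control (-0.51, SE 0.09, adjusted p = 2.8e-04). The coactivator gene Ppargc1b was lower (-0.97, SE 0.34, adjusted p = 0.033), and Nrf1, a transcription factor known for binding promoters of respiratory genes, was higher (0.43, SE 0.15, adjusted p = 0.028). With 1 regulator called lower under total-count scaling, at most 1 of the falls of Esrrg, Tfam and Ppargc1b was called there. Ppargc1a averaged 15.3 ± 5.11 CPM in Cpt2PparaDKO and 28.6 ± 8.04 CPM in Control and was not called.

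Across the 20 libraries most members followed the same pattern. Each member's log2 CPM was correlated with the mean of the standardised values of the other members, a description over libraries that share depth and scaling. The median Pearson correlation was 0.90, and 83 of the 92 members exceeded 0.5. The closest were Ndufa3 (0.98), Ndufb10 (0.98), Atp5c1 (0.97), Ndufs6 (0.97) and Ndufa5 (0.96), and the least alike were Ndufaf5 (-0.02), Ndufa4l2 (0.06), Ndufaf7 (0.08), Ndufaf6 (0.14) and Ndufa12 (0.30). Ndufa3, the member nearest to the common pattern, had 46.2, 54.2, 61.5 and 41.3 CPM in Cpt2PparaDKO and 80.8, 88.9, 89.8 and 75.6 CPM in Control, without overlap (log2 fold change -0.72, SE 0.14, adjusted p = 5.8e-04). It overlaps Tfpt, however.

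Promoter sequences are shown for 4 members with different patterns: Cycs and Atp5g3, higher in Cpt2KO and lower in Cpt2PparaDKO, Sdha, called lower than Control in Cpt2KO, TKO and Cpt2PparaDKO but not in Cpt1DKO, and Cox6b2, nearly lost in Cpt2PparaDKO. Each runs from 250 bases before to 30 bases after the start of the transcript, 5′ to 3′ on the gene's strand, and was taken from RefSeq on GRCm38.p6, which is not the build of the count table. The windows are chr6:50566540-50566819 for Cycs, chr2:73911297-73911576 for Atp5g3, chr13:74350211-74350490 for Sdha and chr7:4753065-4753344 for Cox6b2, all on the minus strand. Capitals mark matches to the motifs searched.
Cycs: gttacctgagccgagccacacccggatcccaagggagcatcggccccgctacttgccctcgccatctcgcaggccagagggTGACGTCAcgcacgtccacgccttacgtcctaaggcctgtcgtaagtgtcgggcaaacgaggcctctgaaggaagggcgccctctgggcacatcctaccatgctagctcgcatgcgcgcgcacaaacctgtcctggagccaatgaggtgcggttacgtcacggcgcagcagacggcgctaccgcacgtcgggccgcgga
Atp5g3: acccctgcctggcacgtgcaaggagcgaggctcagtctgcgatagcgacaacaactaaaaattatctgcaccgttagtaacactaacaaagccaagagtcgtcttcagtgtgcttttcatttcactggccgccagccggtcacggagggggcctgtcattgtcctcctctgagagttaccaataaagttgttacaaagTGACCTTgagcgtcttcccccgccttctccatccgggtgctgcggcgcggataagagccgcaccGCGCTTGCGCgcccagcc
Sdha: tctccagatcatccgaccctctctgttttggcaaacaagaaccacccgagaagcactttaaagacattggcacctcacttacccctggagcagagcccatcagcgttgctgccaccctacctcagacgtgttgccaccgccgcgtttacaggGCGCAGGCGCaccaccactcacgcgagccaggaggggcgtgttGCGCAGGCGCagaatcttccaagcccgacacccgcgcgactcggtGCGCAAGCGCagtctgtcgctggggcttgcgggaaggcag
Cox6b2: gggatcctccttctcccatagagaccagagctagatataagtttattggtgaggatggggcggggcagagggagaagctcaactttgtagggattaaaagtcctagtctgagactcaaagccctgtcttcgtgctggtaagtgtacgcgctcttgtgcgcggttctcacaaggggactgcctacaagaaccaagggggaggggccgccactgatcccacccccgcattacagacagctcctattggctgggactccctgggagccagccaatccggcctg
Capitals are a cAMP response element (TGACGTCA) in Cycs, the nuclear receptor element AAGGTCA on the opposite strand and the NRF1 core in Atp5g3, and 3 NRF1 cores in Sdha. In Cox6b2 none of the searched letters were found in this window.

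Of 98 member symbols, 78 had a promoter in the RefSeq table, 83 promoters in all, and matches were counted on both strands beside all 32851 promoters of the same length. The NRF1 core was in 22.9% of member promoters and 4.41% of all promoters, and the full NRF1 palindrome, which is contained in the core, in 7.23% and 0.910%. The ETS motif CCGGAAG, bound by GABPA, was in 22.9% and 8.45%, the YY1 motif AAGATGGCG in 2.41% and 1.05%, and the nuclear receptor element AAGGTCA, known as an ERR element, in 7.23% and 4.46%. The direct repeat with 1 base between its arms, the form bound by PPAR with RXR, was in 0 of the 83 member promoters and in 0.0365% of all promoters. The cAMP response element, added after the Cycs promoter had been read, was in 6.02% and 1.74%. These are matches of letters in short windows and not measured binding.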

How the data were processed

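Bulk liver RNA in 20 libraries, 4 in each of 5 groups named by the genotype labels, was analysed from a table of read counts and FPKM per gene. The counts, and the FPKM values that the authors derived from count, gene length and library size, were used as deposited. Reads were aligned with HISAT2 to GRCm39 (mm39), per the submitters' processing notes. The counting tool, strand setting and aligner version were not given in the sources used here. RNA was extracted with TRIzol and purified on columns, per the labels' protocols.

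Genes were tested with edgeR 4.0.16 (filterByExpr with a minimum count of 10, TMM factors, robust quasi-likelihood fit over all 20 libraries, Benjamini-Hochberg adjustment over 15669 genes, threshold 0.05) in R 4.3.3. Each SE is the size of a log2 fold change over the root of its F statistic. The biological coefficient of variation was 0.233. There were 9 comparisons: each mutant group against Control, 4 between mutant groups, and the interaction of Cpt1 and Cpt2 loss. The scripts were tested on simulated data. Depth ran from 14129595 to 36452673 counts, and pairs of libraries of 1 group differed beyond counting noise (chi-square per degree of freedom 12.5 to 168). DESeq2 1.42.0, other scalings, no filter, fits of the compared groups alone, a replicate block, a term for or removal of female-pattern libraries and leaving out each library were the alternatives.

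Members named were, per comparison, the 5 largest rises and 5 largest falls among called members averaging at least 5 CPM, with fixed isoform families and catalytic subunits. Other members named in the text were chosen after their values were seen. Members and lists were chosen with earlier results of these data known.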

Additional observations from a re-analysis of the deposited data

Results flagged for a closer look

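For 37 named members, each of the 5 groups was examined for a library far from the other 3, and 15 of 185 were found, where chance gives about 1 in 20. High libraries were TKO replicate 2 for Atp5g1 at 136.5 CPM, Control replicate 4 for Atp5h at 151.3 CPM (the others at 149.4 to 149.7 CPM), Control replicate 4 for Cox6b2 at 3.745 CPM, TKO replicate 3 for Cox7a2 at 126.6 CPM and Cpt2KO replicate 2 for Cox8a at 319.5 CPM. Also high were TKO replicate 4 and Cpt2PparaDKO replicate 3 for Ndufa4l2 at 1.052 and 2.151 CPM, TKO replicate 3 for Ndufab1 at 58.45 CPM, Cpt1DKO replicate 1 for Ndufaf6 at 11.46 CPM and Control replicate 3 for Sdhc at 217.6 CPM. Low libraries were Cpt2PparaDKO replicate 4 for Cox6a1 at 195.7 CPM, Cpt1DKO replicate 2 for Ndufa1 at 50.93 CPM and for Ndufa4l2 at 0.1961 CPM, and Control replicate 1 for Sdha at 512.3 CPM and for Uqcrfs1 at 241 CPM.

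For Ndufab1 the effect of losing Cpt2 was lower in livers without Cpt1a and Cpt1b than in livers with them. The tested difference was -0.56 on the log2 scale (edgeR adjusted p = 0.049). Most fits that left out a library lost this call, and 0 members were called with the replicate block or with no filter on low counts.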

How the results depend on the processing

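Scaling by total count alone moved the number of called members by over 1.5 times in 6 of 9 comparisons, while the median-of-ratios factors moved none by that much. By total count there were 36 in Cpt2KO, 7 in TKO and 14 in Cpt2PparaDKO against Control, 16 in Cpt2KO against Cpt1DKO, 48 in Cpt2PparaDKO against Cpt2KO and 3 in the interaction. The share of all called genes that were higher moved, from TMM to total counts, to 65.8% from 44.1% in Cpt1DKO, to 70.1% from 48.5% in Cpt2KO, to 75.7% from 47.4% in TKO and to 88.0% from 45.7% in Cpt2PparaDKO, each against Control. It moved to 70.4% from 52.5% in Cpt2KO against Cpt1DKO, to 80.2% from 55.8% in TKO against Cpt1DKO, to 80.7% from 49.8% in Cpt2PparaDKO against Cpt2KO and to 39.5% from 52.5% in the interaction. With no filter on low counts there were 10 in TKO against Control, 3 in Cpt2KO against Cpt1DKO and 0 in the interaction. Fitting only the groups compared gave 2 in Cpt1DKO and 27 in TKO against Control, 0 in Cpt2KO against Cpt1DKO and 1 in TKO against Cpt1DKO. DESeq2 gave 1 in Cpt1DKO against Control, 2 in TKO against Cpt2KO, 1 in TKO against Cpt1DKO and 5 in the interaction. Without the female-pattern libraries there were 2 in Cpt1DKO against Control and 3 in the interaction, and with a term for them 1 in Cpt1DKO against Control and 1 in TKO against Cpt1DKO. The cause was not tested for any of these.

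Leaving out each library gave 0 to 1 calls in Cpt1DKO, 10 to 15 in Cpt2KO, 8 to 17 in TKO and 66 to 78 in Cpt2PparaDKO against Control. It gave 0 to 9 in Cpt2KO against Cpt1DKO (9 without Cpt2KO replicate 1), 0 to 0 in TKO against Cpt2KO and in TKO against Cpt1DKO, 65 to 78 in Cpt2PparaDKO against Cpt2KO and 0 to 3 in the interaction (3 without Cpt2KO replicate 1). In Cpt1DKO against Control the 1 call came without Cpt1DKO replicate 3 or without Control replicate 4. Of 2112 such values for named members, 63 lost and 14 gained a call, and none changed sign past the threshold.

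Replicate numbers did not pair the libraries: 6 of 40 same-numbered pairs correlated above 0.1, and 3 of 20 libraries correlated best with their own number. With the replicate block there were 0, 11, 17 and 75 called members in Cpt1DKO, Cpt2KO, TKO and Cpt2PparaDKO against Control, 4 in Cpt2KO against Cpt1DKO, 74 in Cpt2PparaDKO against Cpt2KO and 0 in the interaction. The depth limited Cox6a2, Cox7a1, Cox6b2 and Ndufa4l2, which had few counts.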

Other observations

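Ndufa12, an accessory subunit of complex I, was picked out after its values were seen. It had 55.2, 44.7, 35.0 and 43.4 CPM in Cpt1DKO, 27.1, 35.4, 24.3 and 39.2 CPM in Cpt2KO, 19.9, 14.02, 15.3 and 12.4 CPM in TKO and 14.2, 25.2, 43.2 and 17.0 CPM in Cpt2PparaDKO, against 15.3, 14.4, 13.2 and 59.0 CPM in Control. Control replicate 4 was the highest of all 20 libraries, while the other Control libraries were among the lowest. The pooled SD of its log2 CPM within groups, 0.59, was the largest of the 92 tested members, whose median was 0.18, and it was not called in Cpt2PparaDKO against Control.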
